A study of Mus musculus with 22 samples.

Results

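Stem cell specification was followed through 9 genes, *Mecom*, *Hlf*, *Meis1*, *Meis2*, *Pbx3*, *Etv6*, *Bcl11a*, *Msi2* and *Prdm16*, listed by name as stem cell factors with earlier results of these data known, which are 9 of the 24454 genes counted. Of these, 8 encode DNA-binding transcription factors, whereas *Msi2* encodes an RNA-binding protein that controls translation, so the description as transcription factors does not hold for it. RNA was measured in 22 libraries, each made with SMART-Seq2 from 25 VE-cadherin-positive cells of the aorta-gonad-mesonephros (AGM) region of untreated C57BL/6 mouse embryos. Surface CD44 and Kit divided the cells into CD44Neg (4 from E9.5, 3 from E10, 3 from E11), CD44LoKitNeg (1, 2 and 3 from those stages), CD44LoKitPos (1 from E9.5 and 2 from E10) and CD44High (3 from E11). The labels do not say which embryos were pooled or whether libraries came from separate litters, so the p-values measure only the spread between these libraries.

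Haematopoietic stem cells arise in the AGM from haemogenic endothelium of the dorsal aorta, through the endothelial-to-haematopoietic transition, in which flat endothelial cells round up and turn on blood genes. MECOM (also known as EVI1) and its close relative PRDM16 are zinc-finger proteins needed for stem cell maintenance, HLF is a bZIP factor of the PAR family whose expression marks emerging stem cells, and MEIS1, MEIS2 and PBX3 are TALE homeodomain proteins that bind DNA together with HOX factors. ETV6 is an ETS-family repressor needed for adult stem cells, BCL11A is a zinc-finger repressor known for silencing fetal globin and for lymphoid development, and MSI2 acts on the translation of messages in stem and progenitor cells.

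All 9 genes are protein-coding in GENCODE M21 on mm10. *Mecom* lies at chr3:29951296-30548008, *Hlf* at chr11:90336536-90390895, *Meis1* at chr11:18879817-19018985, *Meis2* at chr2:115863064-116065839, *Pbx3* at chr2:34171457-34373142, *Msi2* at chr11:88339382-88718513 and *Prdm16* at chr4:154316125-154636873, all on the minus strand. *Etv6* at chr6:134035700-134270158 and *Bcl11a* at chr11:24078056-24174123 lie on the plus strand. In that annotation no other counted gene shares exon bases with any of the 9. Annotated genes outside the count table share exon bases with *Mecom*, *Meis1*, *Etv6*, *Bcl11a* and *Prdm16*, at most 9.77% of the exon bases of a gene by any one of them (*Meis1*), and their reads cannot be told apart without strand or at the same strand. The annotation and the strand setting used for counting are not given in the sources used here.

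Promoter windows of 250 bases before to 50 bases after a start site were held for 8 of the 9 genes, in 11 windows, from RefSeq on GRCm38.p6. *Pbx3* has no entry. Motifs were searched on both strands. The RUNX motif was TGTGGT. The GATA motif was AGATAA. For ETS factors the letters were CCGGAA. For TALE factors they were TGACAG. The joint HOX-PBX motif was TGATTNAT, and the PAR bZIP motif was TTACGTAA. The matches found did not overlap each other. The 4 windows printed here are those that hold a match and the upstream start of *Mecom*, a gene with an upstream and an internal start whose reads the count table does not separate. They are written 5′ to 3′ on the strand of the gene, with matches in capitals.
Mecom, upstream start, chr3:30509710-30510009, minus strand: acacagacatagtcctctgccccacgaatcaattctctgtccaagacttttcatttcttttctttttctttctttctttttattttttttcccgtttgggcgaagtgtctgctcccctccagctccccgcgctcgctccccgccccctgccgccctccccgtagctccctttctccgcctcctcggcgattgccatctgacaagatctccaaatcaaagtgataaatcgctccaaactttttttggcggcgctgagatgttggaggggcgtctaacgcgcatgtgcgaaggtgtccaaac
Mecom, internal start, chr3:30013155-30013454, minus strand: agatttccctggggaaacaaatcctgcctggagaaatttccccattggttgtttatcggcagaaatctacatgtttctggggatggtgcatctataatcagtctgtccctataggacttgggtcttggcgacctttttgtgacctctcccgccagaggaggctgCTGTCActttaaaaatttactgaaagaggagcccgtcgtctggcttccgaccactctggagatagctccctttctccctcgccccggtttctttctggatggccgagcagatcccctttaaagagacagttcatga
Meis1, chr11:19018920-19019219, minus strand: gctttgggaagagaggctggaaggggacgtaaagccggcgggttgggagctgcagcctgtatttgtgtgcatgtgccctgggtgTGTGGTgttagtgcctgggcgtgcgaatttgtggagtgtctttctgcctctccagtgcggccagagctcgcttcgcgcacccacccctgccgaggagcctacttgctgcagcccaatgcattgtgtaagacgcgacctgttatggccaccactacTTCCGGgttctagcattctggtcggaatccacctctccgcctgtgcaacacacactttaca
Hlf, chr11:90390868-90391167, minus strand: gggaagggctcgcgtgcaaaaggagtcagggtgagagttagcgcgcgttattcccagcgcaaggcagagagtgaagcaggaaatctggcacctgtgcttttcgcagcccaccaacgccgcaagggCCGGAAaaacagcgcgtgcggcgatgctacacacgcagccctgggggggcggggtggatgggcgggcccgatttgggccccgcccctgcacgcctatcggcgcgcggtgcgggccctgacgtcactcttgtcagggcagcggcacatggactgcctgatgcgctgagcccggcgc

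The internal *Mecom* window held a TALE match at bases 165 to 170, the *Meis1* window a RUNX match at bases 85 to 90 and an ETS match at bases 240 to 245, and the *Hlf* window an ETS match at bases 126 to 131, counted from the first base printed. Among 32851 mouse promoter windows of the same length, 16.8% held the RUNX letters, 14.9% the ETS letters, 19.2% the TALE letters, 11.2% the GATA letters, 3.22% the HOX-PBX letters and 0.119% the PAR bZIP letters. The windows of *Meis2*, *Prdm16*, *Etv6*, *Bcl11a* and *Msi2* held none of the 6 motifs. A match describes the letters only.

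Between 3912350 and 8657546 reads were counted per library, and a count of 0 in a library allows up to 3 counts, that is 0.348 to 0.813 CPM. Without molecular identifiers in the reads, such a limit covers only the error of counting. Levels are given as normalized CPM (each count relative to its library's total, after TMM scaling over the 22 libraries). Summed over 7 endothelial markers, CD44Neg held 2630 to 5050 CPM, CD44LoKitNeg 3173 to 7246 CPM and CD44LoKitPos 722 to 1503 CPM. The CD44High libraries stood apart from their VE-cadherin gate, with 14.1 to 78.4 CPM of these markers and *Cdh5*, which encodes VE-cadherin, at 0 counts in all 3. They held 1675 to 4556 CPM of 8 macrophage markers, against 0 to 52.9 CPM in any library of the other populations, and none of the 8 was at 0 across CD44High. Haematopoietic markers (7 genes) summed to 1.81 to 23.8 CPM in CD44Neg, 4.49 to 134 CPM in CD44LoKitNeg, 336 to 1161 CPM in CD44LoKitPos and 971 to 1724 CPM in CD44High. Megakaryocytic markers (6 genes) summed to 0 to 7.15 CPM in the endothelial populations, 32.5 to 218.5 CPM in CD44LoKitPos and 86.2 to 327 CPM in CD44High. Erythroid markers (10 genes) summed to at most 61.3 CPM outside CD44High and 48.1 to 252 CPM within it, and mesenchymal markers (8 genes) to at most 99.1 CPM outside and 0.271 to 207 CPM within. The erythroid median was 32.0 CPM in CD44LoKitNeg and 8.62 CPM in CD44Neg, and the mesenchymal median 22.0 CPM and 5.42 CPM, with overlapping ranges. The part of such cells in the results was not tested. Of 6 nephric and other epithelial markers, *Krt18* made up nearly all of the sum outside CD44High, with means of 6.06 CPM in CD44Neg, 48.1 CPM in CD44LoKitNeg and 67.4 CPM in CD44LoKitPos, and in CD44LoKitNeg *Pax2*, *Epcam* and *Wt1* were at 0. A number in the form of a date in the sample descriptions changes with the embryonic stage, and its effect and that of stage cannot be told apart.

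The first question was how the 9 genes differ between the 2 endothelial populations, CD44LoKitNeg and CD44Neg. Of the 9 genes, 6 rose in CD44LoKitNeg (*Mecom*, *Meis2*, *Prdm16*, *Hlf*, *Meis1* and *Bcl11a*), none fell, and *Etv6*, *Pbx3* and *Msi2* did not pass the test. Calls were made at an adjusted p under 0.01 with edgeR's quasi-likelihood test and Benjamini-Hochberg adjustment over all 11022 genes tested, of which 10.2% were called and 4.94% were called higher. All 9 genes passed the filter on low counts, *Hlf* through CD44LoKitNeg, where it is high, so without it 5 of 8 genes rose. Mean levels of 5 of the 6 were from 4.69 times (*Meis2*) to 10.98 times (*Bcl11a*) as high in CD44LoKitNeg, and *Hlf* was near 0 in CD44Neg. The median log2 difference was 2.27 over the 9 genes and 0.005 over all genes tested. In bulk libraries, fewer cells of a type that expresses a gene and less RNA per cell cannot be told apart.

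*Mecom* was high in every CD44LoKitNeg library. In CD44Neg its level ran from 29.3 CPM through a median of 73.2 CPM to 125 CPM, and in CD44LoKitNeg from 386 CPM through 431 CPM to 524 CPM. The populations did not overlap. The means were 77.3 ± 34.2 CPM (SD, n = 10) and 451 ± 58.1 CPM (SD, n = 6), a log2 difference of 2.55 with an SE of 0.26 (edgeR adjusted p = 2.6e-06). *Meis2*, a partner of HOX proteins, ran from 2.90 CPM through 25.2 CPM to 33.1 CPM in CD44Neg and from 50.9 CPM through 105 CPM to 132 CPM in CD44LoKitNeg. Again every CD44LoKitNeg library lay above every CD44Neg library, with means of 21.7 ± 11.3 CPM (SD, n = 10) and 102 ± 30.6 CPM (SD, n = 6). The log2 difference of *Meis2* was 2.24 with an SE of 0.38 (edgeR adjusted p = 0.000412), and it was not called when all 22 libraries entered the fit (2.23, edgeR adjusted p = 0.0148). Across all genes tested, 2.50% had every CD44LoKitNeg library above every CD44Neg library, as had 4 of the 9 genes described here (*Mecom*, *Meis1*, *Meis2* and *Bcl11a*).

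*Prdm16*, the relative of *Mecom*, rose less evenly. It ran from 2.62 CPM through 7.19 CPM to 25.6 CPM in CD44Neg, with means of 8.39 ± 6.69 CPM (SD, n = 10) there and 40.4 ± 23.1 CPM (SD, n = 6) in CD44LoKitNeg. The single CD44LoKitNeg library from E9.5 held 3.59 CPM, within the CD44Neg range, whereas the other 5 held 26.0 to 69.0 CPM. The log2 difference was 2.27 with an SE of 0.52 (edgeR adjusted p = 0.00387). The call was lost without CD44LoKitNeg replicate 12 (adjusted p = 0.0108) or replicate 13 (adjusted p = 0.0143), and by limma voom (2.05, adjusted p = 0.0717).

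*Bcl11a*, the zinc-finger repressor, ran from 1.34 CPM through 5.44 CPM to 11.4 CPM in CD44Neg and from 21.1 CPM through 66.6 CPM to 123 CPM in CD44LoKitNeg. The populations did not overlap, and the means were 6.27 ± 3.47 CPM (SD, n = 10) and 68.9 ± 40.3 CPM (SD, n = 6). The log2 difference was 3.45 with an SE of 0.43 (edgeR adjusted p = 2.16e-05). *Meis1*, a HOX cofactor that stem cells need, ran from 0.778 CPM through 8.82 CPM to 16.9 CPM in CD44Neg and from 32.0 CPM through 56.3 CPM to 73.8 CPM in CD44LoKitNeg. Its populations did not overlap either. The means of *Meis1* were 9.33 ± 6.28 CPM (SD, n = 10) and 53.1 ± 18.1 CPM (SD, n = 6), and the log2 difference was 2.51 with an SE of 0.48 (edgeR adjusted p = 0.000942).

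*Hlf* was close to absent from CD44Neg. It had 0 counts in 7 of the 10 CD44Neg libraries and 3, 9 and 23 counts in the others, with the filter passed through CD44LoKitNeg. In CD44LoKitNeg it was counted in all 6 libraries, at 0.672 CPM, 4.02 CPM and 15.4 CPM at E11, 7.76 CPM at E9.5, and 33.0 CPM and 52.3 CPM at E10. The highest levels were those of the E10 libraries, and 2 of the 3 E11 libraries lay within the CD44Neg range. The log2 difference of *Hlf* was 4.67 with an SE of 1.19 (edgeR adjusted p = 0.00851). All 3 CD44Neg libraries from E10 were at 0 counts, so at that stage *Hlf* was at least 65.9-fold higher in CD44LoKitNeg, with the mean floor of 3 counts per library (0.647 CPM) in place of 0. The 2 CD44LoKitNeg libraries from E10 also held the most haematopoietic marker RNA of that population, 134 CPM and 93.9 CPM against 4.49 to 29.2 CPM in the other 4. The part of these cells in the *Hlf* result was not tested. The *Hlf* call stood near the threshold: it was kept in 5 of 16 fits with a single library omitted and lost without CD44Neg replicate 2, 3, 5, 6, 7, 8, 9 or 10 (adjusted p from 0.0112 to 0.0143) and without CD44LoKitNeg replicate 12 (0.0138), 15 (0.0347) or 16 (0.0216).

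*Etv6*, *Pbx3* and *Msi2* were counted in every library of both populations, with levels that overlapped. *Etv6* had means of 47.1 ± 16.3 CPM (SD, n = 10) in CD44Neg and 57.0 ± 21.3 CPM (SD, n = 6) in CD44LoKitNeg, a log2 difference of 0.28 with an SE of 0.28 (edgeR adjusted p = 0.533). *Pbx3* had means of 21.3 ± 13.3 CPM (SD, n = 10) and 17.2 ± 10.3 CPM (SD, n = 6), a log2 difference of -0.31 with an SE of 0.48 (edgeR adjusted p = 0.717). *Msi2* had means of 6.09 ± 2.75 CPM (SD, n = 10) and 11.1 ± 8.41 CPM (SD, n = 6), a log2 difference of 0.87 with an SE of 0.53 (edgeR adjusted p = 0.269). Only 2 CD44LoKitNeg libraries, at 17.03 CPM and 25.6 CPM, lay above the highest CD44Neg library for *Msi2*.

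Single stages were compared as contrasts in a fit of all 22 libraries with 1 term per population and stage, so the filter and the dispersion came from all of them. At E10 and at E11 the 6 differences had the same sign, and fewer passed the test. At E9.5, with 1 CD44LoKitNeg library and no test, *Prdm16* was lower in that library (3.59 CPM) than the CD44Neg mean of 6.17 CPM. At E10, with 2 CD44LoKitNeg and 3 CD44Neg libraries, 1 of the 6 was called (*Bcl11a*, log2 difference 4.44, edgeR adjusted p = 0.00659), as were 30 of 14609 genes in all. *Hlf* was not called there (10.97, edgeR adjusted p = 0.049, a fitted value that depends on the prior count because CD44Neg was at 0), and *Mecom* had a log2 difference of 2.90 (0.0148), *Meis1* of 2.67 (0.038), *Meis2* of 2.98 (0.127) and *Prdm16* of 1.59 (0.375). At E11, with 3 libraries in each population, *Mecom* (log2 difference 2.41, edgeR adjusted p = 0.00727), *Meis1* (4.05, 0.000847) and *Bcl11a* (3.19, 0.00627) were called, as were 422 of 14609 genes in all, and *Meis2* (2.39, 0.146), *Prdm16* (2.98, 0.0459) and *Hlf* (2.86, 0.373) were not. With stage as a covariate, *Hlf* (4.72, 0.0315) and *Prdm16* (1.86, 0.034) were not called.

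**Figure D1:**
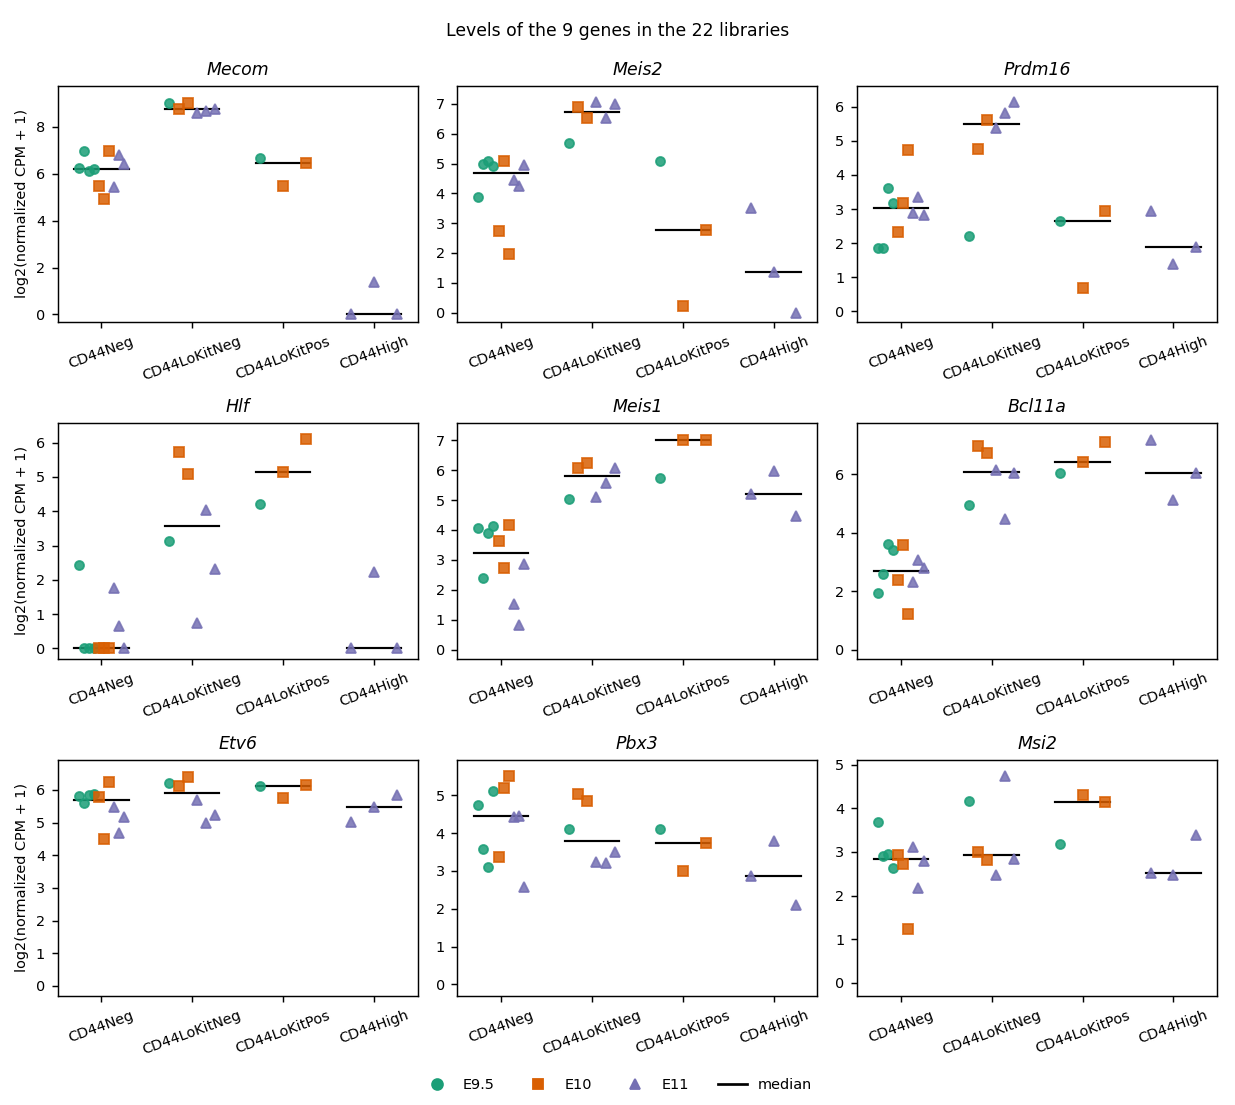
Each panel shows 1 gene, with log2(normalized CPM + 1) on the y axis for the 4 populations on the x axis. Points are the 22 libraries, coloured by embryonic stage, and bars are medians. *Mecom*, *Meis2* and *Prdm16* have their highest medians in CD44LoKitNeg, *Hlf*, *Meis1* and *Bcl11a* have higher medians in both CD44Lo populations than in CD44Neg, and *Etv6*, *Pbx3* and *Msi2* overlap between these populations.

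The next question was what differs between CD44LoKitPos, which has gained Kit, and CD44LoKitNeg. *Mecom* fell and no other of the 9 genes passed the test, while 4.26% of 12949 genes tested were called, 2.55% higher and 1.71% lower. Scaling by the size factors of DESeq2 turned 330 higher and 222 lower calls over all genes into 218 and 273, and the median over all genes was -0.155. The 552 calls over all genes rested in part on single libraries, with 65 without CD44LoKitPos replicate 17, 160 without replicate 18, and 342, 312 and 334 without CD44LoKitNeg replicate 11, 12 and 13. The median log2 difference was 0.16 over the 9 genes and -0.021 over all genes. *Mecom* was 44.2 CPM and 86.6 CPM in the E10 libraries and 101 CPM in the E9.5 library of CD44LoKitPos, so each lay below the lowest CD44LoKitNeg library. The mean of 77.4 ± 29.7 CPM (SD, n = 3) gave a log2 difference of -2.54 with an SE of 0.50 (edgeR adjusted p = 0.00284). Without CD44LoKitPos replicate 17 or 18 the call was lost (-2.29 with adjusted p = 0.036, and -2.67 with adjusted p = 0.0143). At E10 alone, with 2 libraries in each population, the log2 difference was -2.89 (edgeR adjusted p = 0.0123).

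*Meis2* and *Prdm16* had low values in CD44LoKitPos too. *Meis2* was 0.155 CPM and 5.87 CPM at E10 and 33.0 CPM at E9.5, and all 3 lay below the lowest CD44LoKitNeg library. Its log2 difference was -2.97 with an SE of 1.01 (edgeR adjusted p = 0.0554), and it was called by DESeq2 (-3.12, adjusted p = 0.00494), by limma voom (-4.71, adjusted p = 0.00929) and when the E9.5 libraries of both CD44Lo populations were left out (-5.26, adjusted p = 0.00915). *Prdm16* was 0.620 CPM and 6.67 CPM at E10 and 5.27 CPM at E9.5. These lay below 5 of the 6 CD44LoKitNeg libraries, and 2 of the 3 lay above the E9.5 library of that population. The log2 difference of *Prdm16* was -3.26 with an SE of 0.92 (edgeR adjusted p = 0.0217), and it was called without that E9.5 library, CD44LoKitNeg replicate 14 (-3.50, adjusted p = 0.00814), and by DESeq2 (-3.42, adjusted p = 0.000386). Over all genes, 7.35% had every CD44LoKitPos library below every CD44LoKitNeg library, against 2 of the 9 genes here.

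*Hlf*, *Meis1*, *Bcl11a* and *Msi2* had means in CD44LoKitPos at or above those in CD44LoKitNeg, with overlapping libraries. *Hlf* was 34.2 CPM and 67.3 CPM at E10 and 17.5 CPM at E9.5 (log2 difference 1.07, SE 1.38, edgeR adjusted p = 0.675). *Meis1* was 127 CPM and 129 CPM at E10 and 52.3 CPM at E9.5 (0.95, SE 0.60, edgeR adjusted p = 0.322). *Bcl11a* was 84.6 CPM and 138 CPM at E10 and 65.1 CPM at E9.5 (0.48, SE 0.55, edgeR adjusted p = 0.633). For all 3 genes the E9.5 library was the lowest of CD44LoKitPos. *Msi2* was 16.7 CPM and 18.8 CPM at E10 and 8.14 CPM at E9.5, *Etv6* lay between 53.0 and 70.5 CPM and *Pbx3* between 6.97 and 16.3 CPM.

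Set against CD44Neg, which shares its libraries with the first comparison, CD44LoKitPos had 3 of the 9 genes higher and none lower (2 of 8 without *Hlf*, which is near 0 in CD44Neg), with 3.48% of 12949 genes called and 2.08% called higher. The 451 calls over all genes were 182 without CD44LoKitPos replicate 17 and 159 without replicate 18. *Bcl11a* rose by 3.92 on the log2 scale (SE 0.47, edgeR adjusted p = 1.43e-05), *Meis1* by 3.45 (SE 0.52, edgeR adjusted p = 0.000139) and *Hlf* by 5.74 (SE 1.26, edgeR adjusted p = 0.00512). All 3 CD44LoKitPos libraries lay above all 10 CD44Neg libraries for each of these genes, an order that 5.29% of all genes tested had. At E10, where CD44Neg had no *Hlf* count, *Hlf* was at least 78.4-fold higher in CD44LoKitPos by the same floor. The *Hlf* call was lost without CD44LoKitPos replicate 17 (5.84, adjusted p = 0.0183) or replicate 18 (5.11, adjusted p = 0.0487), under a stage covariate (5.27, adjusted p = 0.0407) and at E10 alone (11.19, adjusted p = 0.0207, a fitted value that depends on the prior count). *Mecom* had nearly the same mean in both populations, 77.4 ± 29.7 CPM (SD, n = 3) and 77.3 ± 34.2 CPM (SD, n = 10), with an SE of the log2 difference of 0.41. *Meis2* (log2 difference -0.74, SE 0.85) and *Prdm16* (-0.996, SE 0.78) did not pass the test, with edgeR adjusted p of 0.721 and 0.536. The *Meis2* value was -2.82 without CD44LoKitPos replicate 19, -0.39 without replicate 18 and -0.16 without replicate 17.

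**Figure D2:**
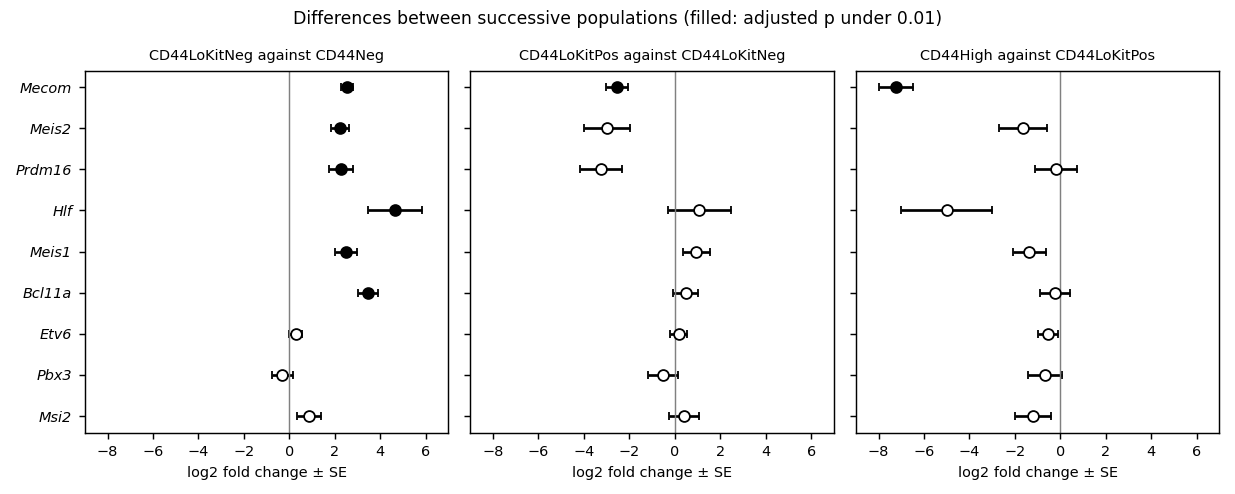
The 3 panels give the log2 fold change (x axis, points, with bars of ± 1 SE) of the 9 genes for each population against the one before it in the order of CD44 and Kit. Filled points were called at an edgeR adjusted p under 0.01. In the first panel 6 genes are filled, all to the right, and in the others only *Mecom* is filled, to the left.

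In CD44High, *Mecom* RNA was nearly absent. It had 0, 6 and 0 counts in the 3 libraries, a mean of 0.532 ± 0.921 CPM (SD, n = 3). Every CD44High library lay below every library of each other population. Against CD44LoKitPos the log2 difference was -7.23 with an SE of 0.77 (edgeR adjusted p = 8.49e-07), against CD44LoKitNeg -9.78 with an SE of 0.80 (edgeR adjusted p = 5.17e-09) and against CD44Neg -7.23 with an SE of 0.74 (edgeR adjusted p = 1.2e-07). Without CD44High replicate 21, which held the 6 counts, the group was at 0 counts and the fitted values, which then depend on the prior count, were -11.8 against CD44LoKitPos and -11.8 against CD44Neg. Of the 9 genes, 1 (*Mecom*) was called between CD44High and CD44LoKitPos, where 3.01% of 12949 genes were called and 2.23% called lower. Over all genes edgeR called 101 higher and 289 lower, and limma voom 361 higher and 124 lower. All 3 CD44High libraries came from E11 and no CD44LoKitPos library did, so stage and population cannot be told apart there.

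*Hlf* had 0, 14 and 0 counts in CD44High, all below the lowest CD44LoKitPos library at 17.5 CPM. Its log2 difference from CD44LoKitPos was -5.00 with an SE of 2.00 (edgeR adjusted p = 0.164), and it did not pass the test. Without CD44High replicate 21, which held the 14 counts, the fitted value was -10.85 (adjusted p = 0.0688) and depends on the prior count. Over all genes, 12.1% had every CD44High library below every CD44LoKitPos library, against 2 of the 9 genes here. *Meis1* was 20.9 CPM, 35.8 CPM and 62.2 CPM in CD44High, and *Bcl11a* was 33.8 CPM, 65.3 CPM and 145 CPM. Both overlapped with CD44LoKitPos, with log2 differences of -1.37 (SE 0.73, edgeR adjusted p = 0.338) and -0.23 (SE 0.65, edgeR adjusted p = 0.937).

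Against CD44LoKitNeg, 3 of the 9 genes fell in CD44High, with 16% of 12949 genes called and 8.17% called lower. These were *Mecom*, *Meis2* and *Prdm16*, the genes with their highest medians in CD44LoKitNeg. *Meis2* was 0 CPM, 1.60 CPM and 10.4 CPM in CD44High, below every CD44LoKitNeg library (as for 11.7% of genes), and *Prdm16* was 1.60 CPM, 2.71 CPM and 6.64 CPM. The log2 difference of *Meis2* was -4.61 with an SE of 1.13 (edgeR adjusted p = 0.0037), and that of *Prdm16* was -3.44 with an SE of 0.94 (edgeR adjusted p = 0.00819). At E11 alone, with 3 libraries in each population, the log2 differences were -9.76 for *Mecom*, -4.88 for *Meis2* and -3.97 for *Prdm16*, with edgeR adjusted p of 2.14e-08, 0.00171 and 0.00295. The *Meis2* call was lost without CD44High replicate 21 (-4.30, adjusted p = 0.025) or replicate 22 (-4.11, adjusted p = 0.0189), and its value was -7.07 without replicate 20. The *Prdm16* call was lost in 8 of 22 such fits, without CD44Neg replicate 7, CD44LoKitNeg replicate 11, 12, 13 or 16, or any of the 3 CD44High libraries, with adjusted p from 0.0101 to 0.0422, and by limma voom (-3.09, adjusted p = 0.14).

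Against CD44Neg, 2 of the 9 genes rose in CD44High (*Bcl11a* and *Meis1*) and *Mecom* fell in CD44High, each library below all CD44Neg libraries as for 9.14% of genes, with 14.4% of 12949 genes called, 7.14% higher and 7.25% lower. *Bcl11a* had a mean of 81.3 ± 57.2 CPM (SD, n = 3), a log2 difference of 3.70 with an SE of 0.47 (edgeR adjusted p = 3.04e-06). *Meis1* had a mean of 39.6 ± 20.9 CPM (SD, n = 3), a log2 difference of 2.08 with an SE of 0.53 (edgeR adjusted p = 0.00523). For both, each CD44High library lay above all CD44Neg libraries, as for 9.55% of all genes tested. The *Meis1* call was lost without CD44Neg replicate 5 (1.97, adjusted p = 0.0108), CD44High replicate 20 (2.06, adjusted p = 0.0218) or CD44High replicate 21 (1.56, adjusted p = 0.0901), and by limma voom (2.36, adjusted p = 0.0104). *Etv6* (43.7 ± 12.6 CPM), *Pbx3* (7.42 ± 4.86 CPM) and *Msi2* (6.23 ± 2.82 CPM), each with an SD over n = 3, were not called between CD44High and any other population. The macrophage marker sum of 1675 to 4556 CPM, the megakaryocytic, erythroid and mesenchymal sums given above and the absence of *Cdh5* hold for the same 3 libraries as every CD44High result, and their part in these results was not tested.

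HOX genes encode the partners of the MEIS and PBX proteins, and 6 of them were followed (*Hoxa5*, *Hoxa7*, *Hoxa9*, *Hoxa10*, *Hoxb3* and *Hoxb4*). Against CD44Neg, 1 of the 6 rose in CD44LoKitNeg, *Hoxa9*, from a mean of 36.3 CPM to 120 CPM (log2 difference 1.73, edgeR adjusted p = 0.000927), where 4.94% of all genes were called higher. The median log2 difference was 1.05 over the 6 and 0.005 over all genes. *Hoxa9* alone of the 6 was also called higher in CD44LoKitPos than in CD44Neg (2.06, edgeR adjusted p = 0.00811), where 2.08% of all genes were. None of the 6 was called between CD44LoKitPos and CD44LoKitNeg. In CD44High all 6 were called lower than in CD44LoKitNeg and than in CD44Neg, and 4 of the 6 lower than in CD44LoKitPos, against 8.17%, 7.25% and 2.23% of all genes. *Hoxa9* had a mean of 152 CPM in CD44LoKitPos and 0.798 CPM in CD44High, and *Hoxa5*, *Hoxa10*, *Hoxb3* and *Hoxb4* had 0 counts in all 3 CD44High libraries. With means of at most 0.798 CPM in CD44High, all 6 passed the filter on low counts through the other populations, where they are higher. Their counts beside the shares of all genes are therefore descriptions.

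Stage was examined within each endothelial population. None of the 8 genes tested was called between E11 and E9.5 in CD44Neg by edgeR or limma voom, nor any of the 7 for which DESeq2 gave an adjusted p (not *Meis2*), where edgeR called 0.684% of 11250 genes. An unadjusted p under 0.05 was found for 1 of the 8 and for 17.1% of all genes tested. That gene was *Meis1*, with 4.29 CPM, 13.8 CPM, 15.9 CPM and 16.5 CPM at E9.5 and 0.778 CPM, 1.85 CPM and 6.19 CPM at E11. The groups overlapped, and the log2 difference was -2.05 with an SE of 0.87 (edgeR adjusted p = 0.237). *Hlf* did not pass the filter there. *Etv6* was lower in every E11 library (24.5 CPM, 35.0 CPM and 44.0 CPM) than in every E9.5 library (47.5 CPM to 58.1 CPM) of CD44Neg, an order that 10.6% of the genes tested had (log2 difference -0.64, SE 0.38, edgeR adjusted p = 0.43).

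In CD44LoKitNeg, where 0.173% of 11010 genes were called between E11 and the earlier stages, none of the 9 genes was called by edgeR, DESeq2 or limma voom, and 2 had an unadjusted p under 0.05, as had 16.8% of all genes tested. *Etv6* was 30.5 CPM, 36.2 CPM and 50.4 CPM at E11, below the 68.1 CPM, 73.1 CPM and 83.8 CPM of the earlier libraries (log2 difference -0.90, SE 0.33, edgeR adjusted p = 0.208). *Pbx3* was 8.27 CPM, 8.46 CPM and 10.4 CPM at E11 and 16.1 CPM, 27.7 CPM and 32.0 CPM before (log2 difference -1.44, SE 0.59, edgeR adjusted p = 0.259). Neither gene overlapped between the stages, as for 13.4% of all genes tested in this direction. *Mecom* in CD44LoKitNeg was 524 CPM at E9.5, 428 CPM and 523 CPM at E10 and 386 CPM, 414 CPM and 433 CPM at E11.

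Whether the difference between CD44LoKitNeg and CD44Neg depended on stage was tested over the 11 libraries from E10 and E11. None of the 9 genes was called by edgeR, DESeq2 or limma voom, with 0.00806% of 12403 genes called by edgeR. The lowest unadjusted p of the 9 was that of *Hlf* (edgeR p = 0.00907), and the share of all genes at such a p is not given here. Its difference between the stages' log2 differences was -8.13 (SE 2.59, edgeR adjusted p = 0.279), a fitted value that rests on the CD44Neg libraries at 0 counts at E10 and depends on the prior count.

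**Figure D3:**
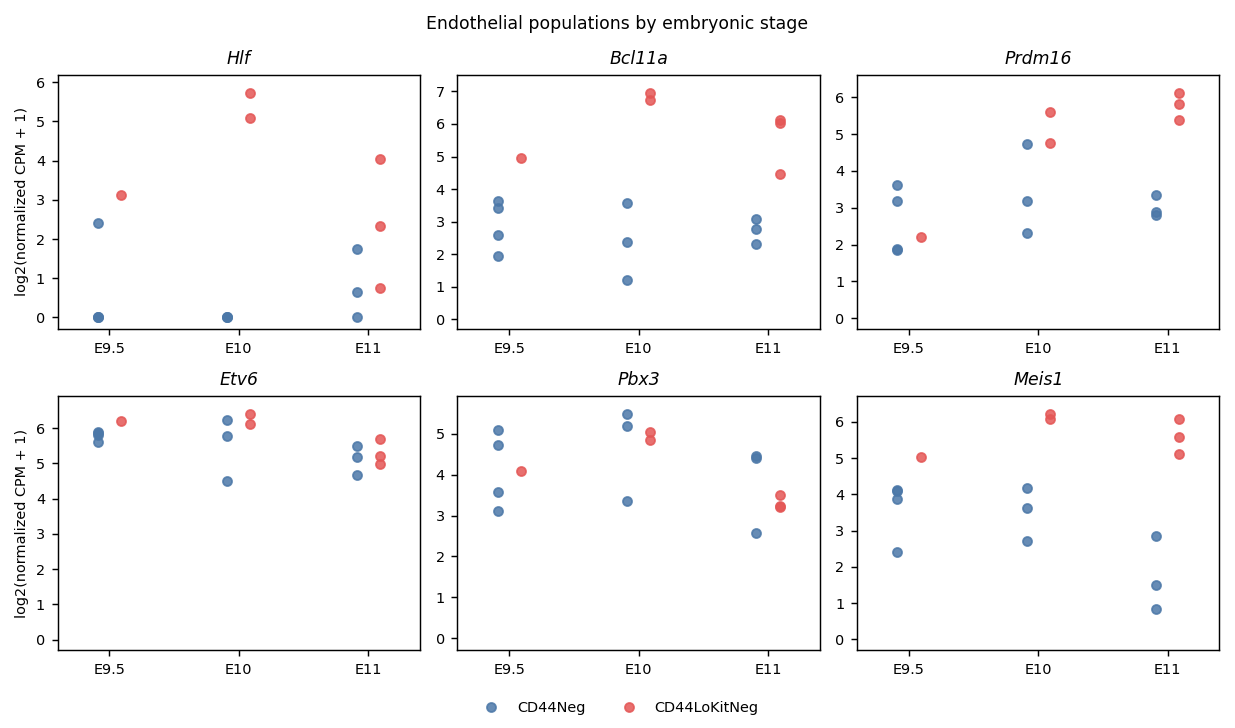
The y axis is log2(normalized CPM + 1) and the x axis is the embryonic stage, for 6 of the 9 genes in CD44Neg and CD44LoKitNeg libraries (points). The E10 libraries hold the highest *Hlf* and *Bcl11a* levels of CD44LoKitNeg, the E9.5 CD44LoKitNeg library lies among the CD44Neg points for *Prdm16*, and the E11 libraries hold the lowest *Etv6* and *Pbx3* levels of CD44LoKitNeg.

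Levels of different genes were set side by side per kilobase of annotated exon, 5983 to 13175 bases per gene, on the scale of mean normalized CPM per kb. In CD44Neg, *Etv6* was the highest of the 9 genes at 7.87, followed by *Mecom* at 6.22 and *Pbx3* at 3.48, and *Hlf* was the lowest at 0.110. In CD44LoKitNeg, *Mecom* led at 36.3, ahead of *Etv6* at 9.53 and *Meis2* at 8.46, and *Msi2* was the lowest at 1.07. In CD44LoKitPos the order was *Etv6* at 10.7, *Meis1* at 9.75, *Bcl11a* at 7.28, *Mecom* at 6.22 and *Hlf* at 5.94. In CD44High it was *Etv6* at 7.31, *Bcl11a* at 6.17 and *Meis1* at 3.76, with *Mecom* the lowest at 0.0428. Neighbours in these orders were not tested, and the exon lengths count all annotated transcripts.

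Levels of the 9 genes were also correlated with each other over the 22 libraries. Pearson's r on log2 CPM was 0.70 between *Mecom* and *Meis2*, 0.70 between *Meis2* and *Prdm16*, 0.74 between *Meis1* and *Bcl11a* and 0.65 between *Hlf* and *Meis1*, whereas it was 0.05 between *Mecom* and *Meis1*. Between *Hlf* and *Msi2* it was 0.58. The libraries share populations, stages and depth, so these values are descriptions.

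**Figure D4:**
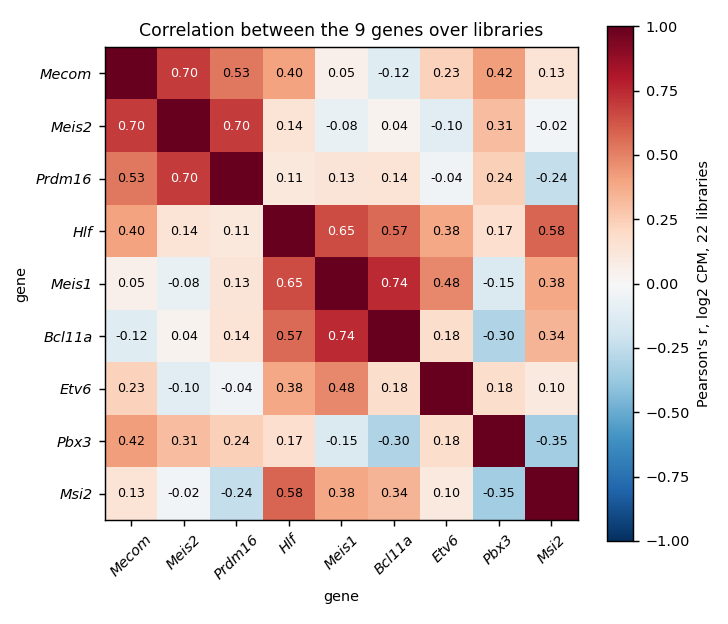
Each cell gives Pearson's r between the genes of its row and its column over 22 libraries (log2 CPM, colour scale from -1 to 1). *Mecom*, *Meis2* and *Prdm16* correlate with each other (0.53 to 0.70), as do *Hlf*, *Meis1* and *Bcl11a* (0.57 to 0.74). Pairs outside these groups reach similar values, such as *Hlf* with *Msi2* (0.58) and *Meis1* with *Etv6* (0.48).

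Among 10044 genes, those whose levels were most like *Mecom* over the 22 libraries were *Tek* (r = 0.96), the angiopoietin receptor of endothelium, and *Calcrl* (r = 0.95), an adrenomedullin receptor subunit. Those most like *Meis2* were *Efnb2* (0.92), the arterial ephrin ligand, and *Pcsk5* (0.89), and those most like *Prdm16* were *Nfat5* (0.86) and *Furin* (0.85). *Hlf* was closest to *Gfi1* (0.82), a haematopoietic repressor, and *Ttpa* (0.82), *Meis1* to *Ikzf2* (0.94) and *Cd44* (0.90), and *Bcl11a* to *Dok2* (0.87) and *N4bp2l1* (0.86). *Cd44* encodes the antigen on which the populations were sorted. The closest genes to *Etv6* were *Armcx5* (0.76) and *Jarid2* (0.76), to *Pbx3* *Pkp2* (0.73) and *B3gnt5* (0.71), and to *Msi2* *Adal* (0.66) and *Tom1l1* (0.65).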

How the data were processed

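Per the study's methods, RNA of 25 sorted cells per library was amplified with SMART-Seq2, and the authors clipped adaptors with FASTX, aligned with RNA STAR and obtained gene counts from htseq-count. The submitters' processing notes name mm10, FastQC and HTSeq. The deposited values are raw counts, without normalization, for 24454 gene symbols in 22 libraries. The annotation, the strand setting and the handling of shared reads are not given in the sources used here. All columns matched a labelled library. Between 3912350 and 8657546 reads were counted per library, of which 1.92% to 23.9% were *Rn45s*. Libraries sharing both population and stage (20 pairs) differed by more than counting noise (chi-square per degree of freedom from 17.6 to 90.2), so none looked like 1 library deposited again. This does not show that libraries came from separate embryos.

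Groups were taken from the labels. Genes were filtered with filterByExpr (minimum count 10 in about as many libraries as the smallest group holds, total count at least 15), scaled by TMM and tested with edgeR's quasi-likelihood test (prior count 0.125) with Benjamini-Hochberg adjustment over all genes tested, at an adjusted p under 0.01. CD44LoKitNeg was compared with CD44Neg over 16 libraries, the other 5 pairs of populations in 1 fit of 22, stages within each endothelial population, and the dependence on stage as an interaction. SEs were derived from the F statistic. Normalized CPM used TMM factors of the 22 libraries, and correlations log2 CPM with a prior count of 2 among genes with a mean of at least 5 CPM. The genes named are the 9 genes, the 2 genes most correlated with each, and members of the companion lists (HOX, PAR bZIP, PRDM, ETS, family partners of *Bcl11a* and *Msi2*, other stem cell regulators) that were called. *Rn45s* and cell type markers are named for library quality and composition. A further list, of other TALE genes, is not reported here. The 9 genes, the lists and the tests were chosen with earlier results of these data known.

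Alternatives were DESeq2's size factors, no filter, at least 10 counts in 6 libraries, DESeq2's Wald test, limma voom, all 22 libraries in the fit, a stage covariate, single stages (as contrasts in a fit of all 22 libraries with 1 term per population and stage, which shares its filter and dispersion over all libraries), *Rn45s* left out, an adjusted p under 0.05 and each library left out in turn. Leaving out the E9.5 libraries of both CD44Lo populations was added after seeing the data. Scripts were checked on simulated counts. R 4.3.3, edgeR 4.0.16, limma 3.58.1, DESeq2 1.42.0, Python 3.11.15, pandas 2.3.3 and matplotlib 3.10.9 were used.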

Additional observations from a re-analysis of the deposited data

Results flagged for a closer look

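*Prdm16* in CD44Neg replicate 10, from E10, stood far from the other 9 libraries of its population. It held 25.6 CPM there and at most 11.4 CPM in the others, and the gap was 0.621 of the whole range. This was 1 of 18 combinations of gene and population examined, and the critical value used passes about 1 in 20 groups by chance, a nominal rate not estimated on these data.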

How the results depend on the processing

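No paired analysis was possible because the labels do not say which libraries came from the same embryos or litters. Of 2103 values of single genes under alternatives, 692 with all libraries of the alternative and 1300 with 1 library left out kept their direction and side of the threshold. For CD44LoKitNeg against CD44Neg, 6 genes were called, and 1 with E10 libraries alone and 3 with E11 alone (contrasts of fewer libraries within a fit of all 22, with 30 and 422 of all 14609 genes called); with 1 library left out 4 to 6 were called. For CD44LoKitPos against CD44LoKitNeg, 1 was called, and 2 at an adjusted p under 0.05, 3 by DESeq2's Wald test, 2 by limma voom, 0 with E10 alone, 2 without the E9.5 libraries, and 0 to 2 with 1 library left out. Over all genes, 1619 of 12949 were called at 0.05, 287 of 14609 with E10 alone and 678 of 13428 without the E9.5 libraries. For CD44High against CD44LoKitNeg, 1 to 3 were called with 1 library left out, the 1 being without CD44High replicate 21 or 22. For the changes by tool and setting not explained by fewer samples or another threshold, the cause was not tested. Calls over all genes between CD44LoKitNeg and CD44Neg were 1121, and 1746 by DESeq2; between CD44LoKitPos and CD44LoKitNeg 552, and 1265 by DESeq2, 1244 by limma voom and 366 with the stage covariate. Between CD44LoKitPos and CD44Neg they were 451, and 829 by DESeq2 and 729 by limma voom, and between CD44High and CD44LoKitPos 390, and 716 by DESeq2. By stage they were 77 in CD44Neg, and 429 by DESeq2, 172 by limma voom, 279 without the filter and 6 in the fit of all 22 libraries by population and stage, 19 in CD44LoKitNeg, and 558 by DESeq2, 68 by limma voom, 163 without the filter and 144 with 10 counts in 6 libraries, and 1 for the interaction, and 125 by DESeq2 and 190 without the filter. With 1 library left out they were 65 to 687 for CD44LoKitPos against CD44LoKitNeg, 159 to 630 against CD44Neg, 8 to 98 by stage in CD44Neg (8, 21, 9, 14 and 24 without replicate 1, 2, 3, 4 and 7), 0 to 2 in CD44LoKitNeg whichever library was left out and 0 to 3 for the interaction. Without CD44High replicate 22 they were 251 for CD44High against CD44LoKitPos and 1334, from 2067, against CD44LoKitNeg.

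The log2 differences that changed sign had been called in none of the comparisons concerned. Between CD44LoKitNeg and CD44Neg, *Pbx3* was 0.063 with E10 alone. Between CD44LoKitPos and CD44LoKitNeg, *Etv6* was -0.14 with the stage covariate and -0.32 with E10 alone, and *Bcl11a* -0.065 with E10 alone. Between CD44LoKitPos and CD44Neg, *Mecom* was -0.047 with DESeq2's size factors and Wald test, -0.0062 with 10 counts in 6 libraries, -0.026 without *Rn45s*, -0.27 without the E9.5 libraries, and -0.24 to 0.28 with 1 library left out. Between CD44High and CD44LoKitPos, *Prdm16* was 0.15 by limma voom, 0.015 without the E9.5 libraries and -1.05 to 0.33 with 1 library left out. With the stage covariate *Pbx3*, *Etv6* and *Bcl11a* were 0.27, 0.20 and 0.28 there, *Meis2* was 0.45 without the E9.5 libraries and -4.10 to 0.45 with 1 library left out, and *Bcl11a* -1.04 to 0.14. Between CD44High and CD44LoKitNeg, *Meis1* and *Etv6* were 0.11 and 0.062 with the covariate, *Etv6* 0.051 with E11 alone, and *Bcl11a* -0.60 to 0.55 with 1 library left out. Between CD44High and CD44Neg, *Etv6* was 0.45 with the covariate and 0.28 with E11 alone, *Msi2* -0.0071 without the E9.5 libraries and -0.44 to 0.18 with 1 library left out, and *Hlf* -5.14 to 1.95. With 1 library left out, the stage difference in CD44Neg was -0.42 to 0.21 for *Mecom*, -0.63 to 0.090 for *Pbx3* and -0.033 to 0.70 for *Prdm16*, and in CD44LoKitNeg -0.51 to 0.023 for *Meis1* and -0.86 to 0.90 for *Msi2*, which was -0.0096 by limma voom. The interaction for *Msi2* was -0.63 to 0.96.

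*Hlf* was the gene most often at 0 counts, in 7 CD44Neg and 2 CD44High libraries, and the part of depth in this was not tested. CD44LoKitPos and CD44High rest on 3 libraries each.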

Other observations

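Among 9 other ETS-family genes, *Elf1* rose in CD44LoKitNeg against CD44Neg, from a mean of 12.6 CPM to 37.1 CPM (log2 difference 1.57, edgeR adjusted p = 0.00735), and *Ets1* and *Ets2* fell, from 331 CPM to 95.05 CPM (-1.79, adjusted p = 9.2e-05) and from 166 CPM to 69.1 CPM (-1.26, adjusted p = 0.0032). Over all 11022 genes tested, 544 were called higher and 577 lower in that comparison, and 642 and 498 with DESeq2's size factors and 623 and 501 without *Rn45s*. *Elk3* was 22.9 CPM in CD44High, called lower there than in each other population, and *Ets1* was called lower there than in both endothelial populations and *Ets2* than in CD44Neg. *Elf1* was called higher in CD44High than in both endothelial populations. In CD44LoKitPos against CD44Neg, *Elf1* was called higher and *Elk3* and *Ets1* lower. Among 15 other regulators described in blood stem cells, *Gata2* (21.7 CPM to 65.6 CPM, adjusted p = 0.00101), *Ikzf2* (2.14 CPM to 40.0 CPM, adjusted p = 0.00129) and *Nkx2-3* (5.27 CPM to 43.3 CPM, adjusted p = 0.00703) rose in CD44LoKitNeg. Of the 15, 10 passed the filter there. Between CD44LoKitPos and CD44LoKitNeg 13 of the 15 passed it and 1 was called (4.26% of all genes), *Gfi1b*, at 44.2 CPM against 0.056 CPM. *Gfi1b* passed the filter through the populations where it is high, and without it none of the list was called there. In CD44High, 4 of the 13 tested were called lower than in CD44LoKitPos (*Mycn*, *Hmga2*, *Cdkn1c* and *Nkx2-3*), where 2.23% of all genes were, and none higher. *Gfi1b*, *Ikzf1*, *Ikzf2* and *Myb* were called higher than in CD44Neg both in CD44LoKitPos (2.08% of all genes) and in CD44High (7.14%), and *Gfi1b* and *Ikzf1* higher in CD44High than in CD44LoKitNeg (1009 of 12949 genes). At a mean of 0 CPM in CD44Neg, *Gfi1b* and *Ikzf1* passed the filter through the populations where they are higher. Without them, *Ikzf2* and *Myb* remain against CD44Neg, where their means were 2.14 CPM and 1.30 CPM. *Cdkn1c*, *Hmga2* and *Nkx2-3* were also called lower in CD44High than in CD44LoKitNeg (8.17%) and in CD44Neg (7.25%). *Nkx2-3* was at 0 counts in all 3 CD44High libraries, so it passed the filter through the other populations.

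None of the 13 other PRDM genes (6 to 8 passed the filter) or of the 3 PAR bZIP and related genes (2 passed) was called by edgeR in any comparison, and the 2 family partners of *Bcl11a* and *Msi2* did not pass the filter. By stage, *Elk3* rose and *Hmga2* fell from E9.5 to E11 in CD44Neg (log2 differences 1.27 and -1.64, edgeR adjusted p = 0.0014 and 0.00288), and *Mycn* fell at E11 in CD44LoKitNeg, from 112 CPM to 5.03 CPM (-4.43, adjusted p = 0.00533). In all, 77 genes (0.684%) and 19 genes (0.173%) were called there. As given above, few stayed called in CD44LoKitNeg whichever library was left out, and fewer in CD44Neg without some libraries. Whether these calls hold in those fits is not given here. Stage cannot be told apart from the number in the form of a date.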
